A study of Mus musculus with 6 samples.

Results

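The canonical Wnt pathway was followed here through 10 genes that report on it, tune the receptor or carry the signal to DNA. They are the feedback genes Axin2, Rnf43 and Znrf3, the R-spondin receptor genes Lgr4, Lgr5 and Lgr6, and the genes for the DNA-binding partners of beta-catenin, Tcf7, Lef1, Tcf7l1 and Tcf7l2. They were taken by symbol, and all 10 were found among the 51826 symbols of the count tables. RNA-seq libraries had been made from mammary basal cells of pubertal C57B6/N mice with the genotype SMAcreERT2/N1ICD, which joins a tamoxifen-inducible Cre driven by the smooth muscle actin promoter to an allele for the active intracellular domain of Notch1. Each of 3 pools of 2 to 3 mice was split by GFP into a positive fraction (GFPpos) and a negative one (GFPneg) at postnatal day 24, 72 hours after 1 dose of tamoxifen at day 21, which gave 3 libraries per group. Both fractions came from mice that carry the Cre and the allele and that received tamoxifen. Labelled cells without the allele were not analysed here, so that a response to Notch activation cannot be told apart from an uneven choice of the cells that gained GFP. The study is about a change of cell fate after Notch activation, and GFPpos against GFPneg cells is the comparison that bears on it.

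In the canonical pathway a Wnt ligand bound to a Frizzled receptor and an Lrp co-receptor keeps beta-catenin from being degraded, and beta-catenin then joins TCF/LEF proteins at target genes. Axin2 is a direct target in most tissues and a scaffold of the complex that degrades beta-catenin, so its RNA is widely used as a readout. Rnf43 and Znrf3 are membrane ubiquitin ligases that remove Frizzled receptors, and R-spondins bound to Lgr receptors clear these ligases from the surface. In the mouse mammary gland, Wnt-responsive cells lie largely in the basal layer, and Lgr5 and Lgr6 mark subsets of epithelial cells there.

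Library GFPneg replicate 1 stood apart. It held 611465 gene counts, against 9912610 to 16043492 in the other 5 libraries, and 69.2% of its counts lay in 5 abundant noncoding features, against 22.7% to 34.7%. Of the 2904 genes with at least 32.8 CPM (counts scaled to the effective library size) in each of the other 5 libraries, a level worth 10 counts in it, 194 (6.68%) had 0 counts there. A count in that library equals 3.28 CPM, and a library at 0 is given a limit of 3 counts, 9.84 CPM. Results are therefore given with and without it. The defining basal genes Krt5, Krt14, Trp63 and Acta2 had counts in all 6 libraries.

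None of the 10 genes passed the test between GFPpos and GFPneg cells. Of the 9 that passed the filter on low counts, 0 were called higher and 0 lower in GFPpos cells by edgeR (adjusted p below 0.05, quasi-likelihood test with Benjamini-Hochberg adjustment). Of the 13873 genes tested 0.0649% were called, 0.0577% higher and 0.00721% lower. Lgr4 was the 1 member with an unadjusted p below 0.05, against 5.26% of all genes tested. DESeq2, DESeq2 with the replicate block, limma-voom and edgeR with the block also called 0 members, where they called 0.709%, 1.14%, 0.562% and 0.44% of genes. The log2 fold change was negative in 7 of the 9, with a median of -0.32 beside 0.15 over all genes tested. The 7 include Rnf43, at -2.6e-05, which has no direction. In 2 of the 9, Lgr4 and Tcf7l1, all 3 GFPpos libraries lay below all 3 GFPneg libraries, an arrangement found in 3.63% of all genes tested, and 0 lay above, against 9.53%. Axin2, Lgr4 and Tcf7l1 had the lower value in GFPpos cells in all 3 pools, as had 8.07% of all genes tested, and 0 members had the higher value in all 3, against 21.5%. In the 2 deeper pools, replicates 2 and 3, 5 of the 9 had the lower value in GFPpos cells, against 29.6% of all genes tested, and 0 the higher, against 29.1%. In bulk libraries, fewer cells of a type and less RNA per cell cannot be told apart.

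**Figure D1:**
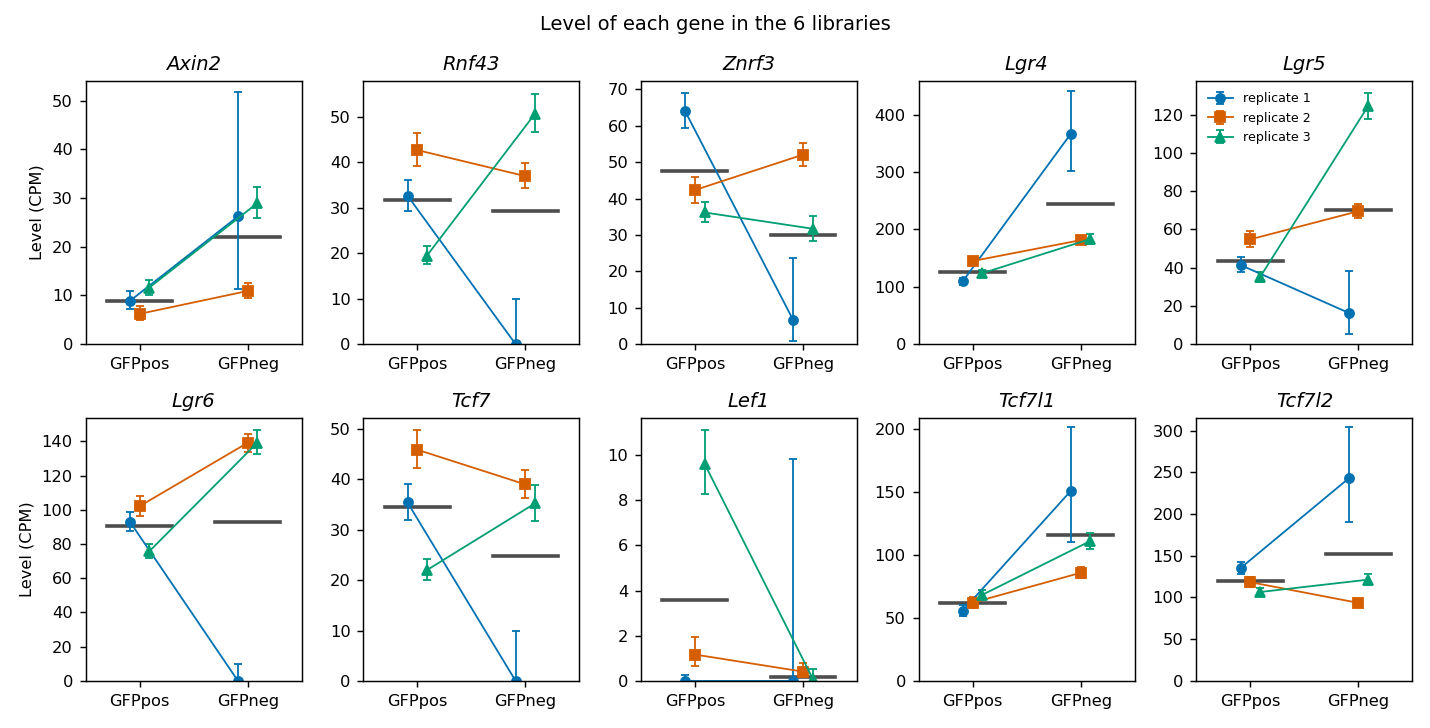
Level of each gene in CPM in the 3 GFPpos and 3 GFPneg libraries. Lines join the 2 fractions of a pool, grey bars are group means, and error bars are 95% counting intervals (for a library at 0, the limit of 3 counts). All 3 GFPpos points lie below all 3 GFPneg points for Lgr4 and Tcf7l1, and GFPneg replicate 1 lies at 0 for Rnf43, Lgr6, Tcf7 and Lef1.

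The promoter windows of the 3 genes with the lower value in GFPpos cells in all 3 pools are shown because they are the members whose pools went 1 way. They run from 250 bases before to 50 bases after the gene's start (RefSeq, GRCm38.p6), and capitals mark the RBPJ motif GTGGGAA, the letters bound by the DNA-binding partner of the Notch intracellular domain, read on either strand.
Axin2, chr11:108920099-108920398, plus strand: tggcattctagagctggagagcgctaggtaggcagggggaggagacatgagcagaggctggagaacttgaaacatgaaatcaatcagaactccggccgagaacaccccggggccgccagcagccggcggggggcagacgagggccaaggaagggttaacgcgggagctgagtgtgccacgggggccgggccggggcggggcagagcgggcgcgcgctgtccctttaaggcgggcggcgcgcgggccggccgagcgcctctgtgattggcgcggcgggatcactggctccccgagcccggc
Lgr4, chr2:109917397-109917696, plus strand: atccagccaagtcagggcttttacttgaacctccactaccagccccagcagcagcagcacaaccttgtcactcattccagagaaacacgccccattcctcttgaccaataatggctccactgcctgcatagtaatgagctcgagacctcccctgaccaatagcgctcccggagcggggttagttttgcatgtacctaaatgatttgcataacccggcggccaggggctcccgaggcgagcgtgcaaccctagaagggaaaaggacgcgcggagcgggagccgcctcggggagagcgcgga
Tcf7l1, chr6:72788996-72789295, minus strand: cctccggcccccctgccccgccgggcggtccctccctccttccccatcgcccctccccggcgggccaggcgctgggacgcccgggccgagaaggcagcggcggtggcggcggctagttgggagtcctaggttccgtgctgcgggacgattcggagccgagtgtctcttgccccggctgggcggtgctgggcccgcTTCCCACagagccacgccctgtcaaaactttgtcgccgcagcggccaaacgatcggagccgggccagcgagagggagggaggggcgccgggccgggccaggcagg
The Tcf7l1 window holds 1 RBPJ motif, on the opposite strand and starting at base 196 of the printed run. The TCF/LEF core was searched on either strand in 4 spellings, which were CTTTGAA and also CTTTGAT and also CTTTGTA and also CTTTGTT, and it is in none of the 3 windows. Over all 32851 windows of this length, 16.9% hold the TCF/LEF core and 6.38% the RBPJ motif. Of the 14 windows of the 8 members found in the table, 2 hold the core, 1 each of Lef1 and Tcf7l2, and 3 hold the RBPJ motif, 2 overlapping windows of Lef1 and that of Tcf7l1.

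Axin2 (chromosome 11, 108920349 to 108950783, mm10), the scaffold and readout gene, stood at 8.88, 6.22 and 11.6 CPM in GFPpos replicates 1, 2 and 3, and at 26.2, 10.9 and 29.0 CPM in GFPneg replicates 1, 2 and 3. The GFPpos library was the lower of each pool, but the groups overlapped, because GFPpos replicate 3 exceeded GFPneg replicate 2. The mean was 8.91 ± 2.70 CPM over the GFPpos libraries and 22.0 ± 9.72 CPM over the GFPneg libraries (SD, n = 3 each). Within pools the GFPneg to GFPpos ratio was 2.95, 1.76 and 2.49 in replicates 1, 2 and 3, with 95% counting intervals of 1.24 to 6.05, 1.35 to 2.30 and 2.09 to 2.97. The log2 fold change was -1.28 (SE 0.80, 95% interval -2.97 to 0.41), which did not pass edgeR's quasi-likelihood test (adjusted p = 1.00). The value for GFPneg replicate 1 rests on 8 counts. Without that library the log2 fold change was -1.14 (adjusted p = 0.656).

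Rnf43 (chromosome 11, 87662722 to 87735539), a ligase gene that is also a Wnt target, had 32.6, 42.6 and 19.5 CPM in the GFPpos libraries, against 0, 36.9 and 50.7 CPM in the GFPneg libraries. Neither group was consistently the higher one. The GFPpos level was at least 3.32-fold higher in replicate 1 against the limit of 3 counts, 1.16-fold that of GFPneg in replicate 2 and 0.384-fold in replicate 3. The fitted log2 change was 0.00, with a 95% interval of -1.73 to 1.73. Without GFPneg replicate 1 it was -0.45 (edgeR adjusted p = 0.887).

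Znrf3 (chromosome 11, 5276324 to 5444847), the paralogous ligase gene, had 64.0, 42.3 and 36.2 CPM in the GFPpos libraries, against 6.56, 52.1 and 31.7 CPM in the GFPneg libraries. The low GFPneg value is replicate 1, which held 2 counts, and the other GFPneg libraries lay on either side of GFPpos replicates 2 and 3. Its fitted log2 change was 0.56 (SE 0.65, 95% interval -0.83 to 1.95) and the adjusted p 1.00 in edgeR's quasi-likelihood test. In replicates 2 and 3 the GFPpos to GFPneg ratio was 0.813 (95% counting interval 0.731 to 0.903) and 1.14 (1.00 to 1.30), on either side of 1.

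**Figure D2:**
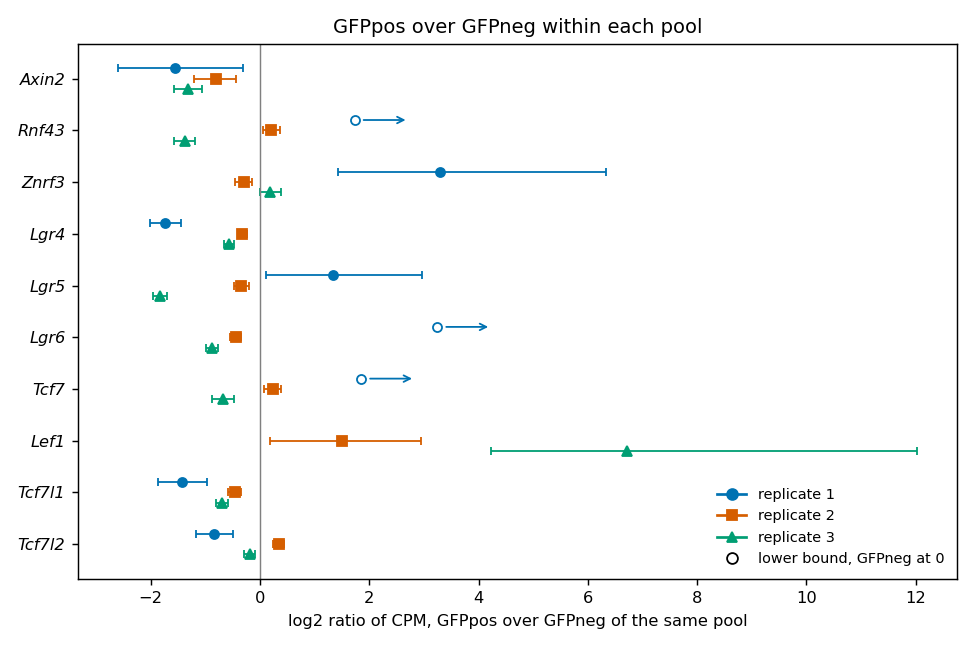
Log2 ratio of CPM, GFPpos over GFPneg of the same pool, for each gene and replicate. Error bars are 95% intervals of counting error only, open symbols with arrows are lower bounds where GFPneg replicate 1 had 0 counts, and Lef1 has no value in replicate 1, where both fractions were at 0. Axin2, Lgr4 and Tcf7l1 lie left of 0 in all 3 pools, and Lgr5 and Lgr6 in replicates 2 and 3 only.

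The R-spondin receptor genes had their lower values in GFPpos cells in replicates 2 and 3. In these pools all 3 Lgr genes had a GFPpos to GFPneg ratio below 1, whereas in replicate 1 Lgr5 and Lgr6 had a ratio above 1. Lgr4, the most widely expressed of the 3 receptors (chromosome 2, 109917647 to 110014257), had 110, 145 and 124 CPM in the GFPpos libraries, against 367, 181 and 183 CPM in the GFPneg libraries. The groups did not overlap, and the GFPneg libraries were spread by the high value of replicate 1 (112 counts). The log2 fold change was -0.93 (SE 0.42, 95% interval -1.83 to -0.04), with an unadjusted p of 0.0426 and an adjusted p of 0.921 in edgeR's quasi-likelihood test. It was -0.51 without GFPneg replicate 1 (95% interval -1.08 to 0.05, adjusted p = 0.619). In replicates 2 and 3 the GFPpos level was 0.799-fold and 0.675-fold that of GFPneg.

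Lgr5 (chromosome 10, 115450311 to 115587780), a stem cell marker in the intestine and hair follicle that also marks a subset of mouse mammary basal cells, had 41.4, 54.8 and 35.0 CPM in the GFPpos libraries, against 16.4, 69.5 and 124 CPM in the GFPneg libraries. GFPneg replicate 1, with 5 counts, was the lowest library of all, and GFPneg replicates 2 and 3 were both above every GFPpos library. Its counting interval, 5.32 to 38.3 CPM, lay below both other GFPneg libraries. The log2 fold change over all 6 libraries was -0.74 (SE 0.61, adjusted p = 1.00). Without GFPneg replicate 1 it was -1.13 (SE 0.34, 95% interval -1.86 to -0.39, adjusted p = 0.221 in edgeR's test), where 0.602% of 15274 genes were called. In the fit of 2 pairs with the replicate block, which calls 3.92% of genes, the adjusted p was 0.0735. It was below the threshold (adjusted p = 0.0477) in 1 of 22 fits, the one without GFPneg replicate 1 and without a filter on low counts, which calls 2.42% of genes. That fit was chosen after the data were seen, and its p rests almost wholly on the spread shared across genes.

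Lgr6 (chromosome 1, 134983301 to 135105276), a marker of stem cells in skin and of mouse mammary progenitors, had 93.1, 102 and 75.7 CPM in the GFPpos libraries, against 0, 139 and 139 CPM in the GFPneg libraries. GFPneg replicates 2 and 3 were above all GFPpos libraries, and GFPneg replicate 1 was below them. The lowest level of Lgr6 in any other library would have given 23.1 counts in GFPneg replicate 1, where it had 0. Of the 1486 genes with at least 65.6 CPM in each of the other 5 libraries, 27 were at 0 there. The fit gave a log2 fold change of -0.11 (SE 0.75, 95% interval -1.71 to 1.49, adjusted p = 1.00 in edgeR's quasi-likelihood test) and -0.61 without GFPneg replicate 1 (95% interval -1.19 to -0.02, adjusted p = 0.517). With the replicate number as a block it had the other sign, at 0.47.

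Without GFPneg replicate 1, the GFPpos libraries lay below both remaining GFPneg libraries for 4 of the 9 genes, Lgr4, Lgr5, Lgr6 and Tcf7l1, an arrangement found in 13.6% of all genes tested, and 0 lay above, against 12.6%. In that fit 3 members (Lgr5, Lgr6 and Tcf7l1) had an unadjusted p below 0.05, against 9.13% of genes, and 0 were called. With a whole pool left out, groups of 2 libraries each did not overlap for 4 of the 9 members without replicate 1, 4 without replicate 2 and 3 without replicate 3, against 39.1%, 38.6% and 30.7% of all genes tested in either direction. The summed level of 10 basal marker genes also differed between the groups. It was 6659 to 7765 CPM in GFPpos libraries and 8718 to 14580.4 CPM in GFPneg libraries. All 10 fold changes were negative, with 0 called over all 6 libraries and 1, Cnn1, called lower without GFPneg replicate 1. In the fit of 2 pairs with the replicate block, which calls 3.92% of genes, 3 were called lower (Acta2, Cnn1 and Tagln). The summed level of 12 luminal markers was 653 to 956 CPM in GFPpos and 239 to 548 CPM in GFPneg libraries. The 239 CPM is GFPneg replicate 1, with 73 counts in all and 8 of the 12 genes at 0. GFPneg replicates 2 and 3 had 514 and 548 CPM. Of the luminal fold changes 9 were positive and 3 negative, with 0 called over all 6 libraries. Kit alone was called higher without GFPneg replicate 1, and also with the replicate block. In the fit of 2 pairs with the block 2 were called higher, Krt19 and Kit. The part of either difference in the values of the Lgr and Tcf7l1 genes was not tested.

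**Figure D3:**
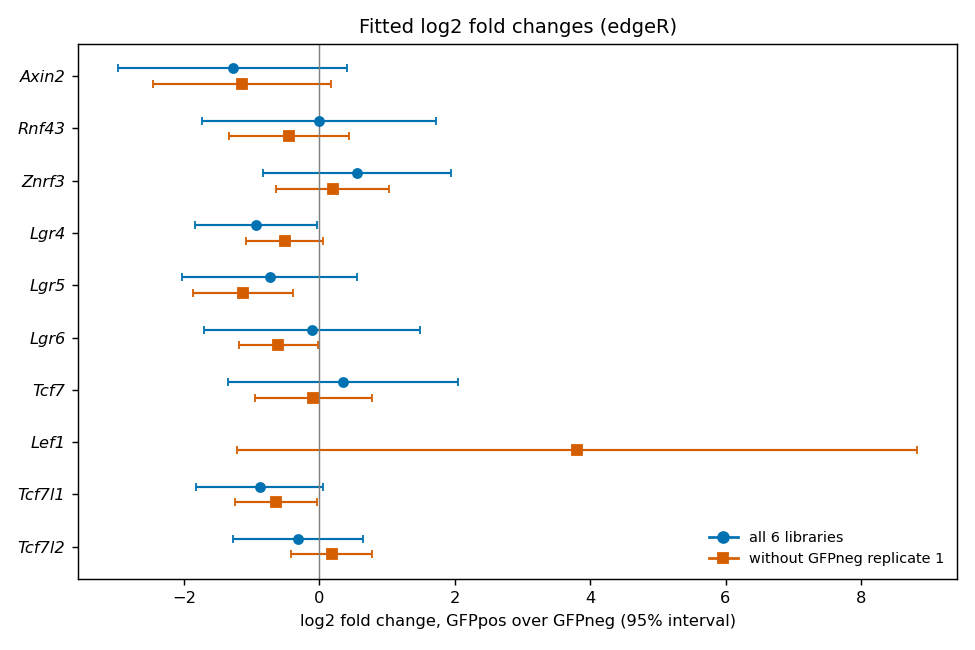
Fitted log2 fold change of each gene, GFPpos over GFPneg, with its 95% interval, from all 6 libraries (circles) and without GFPneg replicate 1 (squares). The intervals of Lgr5, Lgr6 and Tcf7l1 without that library end below 0, at -0.39, -0.02 and -0.04, and none of their adjusted p-values is below 0.05. Lef1 has no value from all 6 libraries because it did not pass the filter.

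Among the genes for the DNA-binding partners of beta-catenin, Tcf7l1 was the one whose groups did not overlap. Tcf7l1 (chromosome 6, 72626378 to 72789254) encodes the member best known as a repressor of Wnt targets in stem cells and skin. It had 55.8, 62.0 and 68.3 CPM in the GFPpos libraries, against 151, 85.7 and 111 CPM in the GFPneg libraries. The GFPpos libraries were also close to each other, with a mean of 62.0 ± 6.22 CPM, and the GFPneg libraries had 116 ± 32.8 CPM (SD, n = 3 each). Within pools the GFPpos level was 0.370-fold, 0.723-fold and 0.615-fold that of GFPneg in replicates 1, 2 and 3. The log2 fold change was -0.88 (SE 0.44, 95% interval -1.83 to 0.06, adjusted p = 1.00 in edgeR's quasi-likelihood test). It was -0.64 without GFPneg replicate 1 (95% interval -1.25 to -0.04, adjusted p = 0.506).

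Tcf7l2 (chromosome 19, 55741820 to 55933654), which encodes the TCF protein that prevails in intestine and many other epithelia, had 135, 118 and 107 CPM in the GFPpos libraries, against 243, 93.5 and 121 CPM in the GFPneg libraries. The GFPpos values lay inside the GFPneg range. Its fitted log2 change was -0.32 (SE 0.45, 95% interval -1.27 to 0.64, adjusted p = 1.00 in edgeR's test), and its sign turned without GFPneg replicate 1 (0.18) and with library size as the only scaling (0.14).

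Tcf7 (chromosome 11, 52252371 to 52283014), which encodes the TCF protein first known from T cells, had 35.4, 45.9 and 22.0 CPM in the GFPpos libraries, against 0, 39.0 and 35.3 CPM in the GFPneg libraries. Leaving aside the library at 0, GFPneg replicates 2 and 3 lay within the GFPpos range. The fitted log2 change was 0.35 (SE 0.80, 95% interval -1.35 to 2.05, adjusted p = 1.00 in edgeR's test) and -0.09 without GFPneg replicate 1. The GFPpos to GFPneg ratio was 1.18 in replicate 2 and 0.624 in replicate 3.

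Lef1 (chromosome 3, 131110471 to 131224356), which encodes the partner active in hair follicle and early mammary bud, was low in most libraries and did not pass the filter on low counts. It had 0, 15 and 185 counts in GFPpos replicates 1, 2 and 3, and 0, 8 and 1 counts in GFPneg replicates 1, 2 and 3. These counts are 0, 1.17 and 9.60 CPM in GFPpos cells and 0, 0.411 and 0.0911 CPM in GFPneg cells, so that 1 library, GFPpos replicate 3, holds nearly all of its RNA. The ratio in replicate 3 was 105 (95% counting interval 18.7 to 4185) and in replicate 2 it was 2.84 (1.13 to 7.74). In the fit without a filter on low counts the log2 fold change was 3.90 (SE 2.25, adjusted p = 0.572 in edgeR's quasi-likelihood test), a fit that calls 1.22% of 24729 genes.

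Beside Lef1, marker lists of other cell types did not all go the same way in GFPpos replicate 3. The summed level of 11 endothelial markers was 879, 768 and 2237 CPM in GFPpos replicates 1, 2 and 3, and 1521, 862 and 608 CPM in GFPneg replicates 1, 2 and 3. The summed level of 11 pericyte markers was 448, 312 and 887 CPM in GFPpos libraries and 59.0, 181 and 247 CPM in GFPneg libraries. Within the endothelial list, Pecam1 and Cdh5 had 981 and 644 CPM in GFPpos replicate 3. Kdr, Tek, Sox17 and Sox18 were highest in GFPneg replicate 2, at 170, 47.1, 19.0 and 20.3 CPM. Of the pericyte list, Notch3 had 155, 101 and 279 CPM in GFPpos and 42.6, 21.7 and 61.5 CPM in GFPneg libraries. Pdgfrb had 8.70, 7.55 and 66.6 CPM in GFPpos and 0, 12.8 and 29.1 CPM in GFPneg libraries. The endothelial and pericyte sums had their highest value in GFPpos replicate 3. The luminal sum had its lowest GFPpos value there, although Kit, a luminal marker, was highest there, at 145 CPM. The sum of 9 Schwann cell markers had its lowest value of all 6 libraries there (207, 196 and 124 CPM in GFPpos, 889, 211 and 446 CPM in GFPneg libraries). The 9 markers of differentiating keratinocytes summed to 2.36, 9.65 and 3.22 CPM in GFPpos libraries and 203, 130 and 31.5 CPM in GFPneg libraries. Of the 4 tested over all 6 libraries 1, Krt1, was called lower in GFPpos cells, as were 0.00721% of all genes tested. The 11 immune and T cell markers summed to 4.17, 18.3 and 21.8 CPM in GFPpos libraries and 0, 4.67 and 11.5 CPM in GFPneg libraries, with Cd3g and Cd52 at 0 counts in all 6. Members of that list differed in direction. Lck, the 1 member that passed the filter, had 2.36, 8.87 and 3.32 CPM in GFPpos libraries and 0, 4.06 and 10.02 CPM in GFPneg libraries, and Cd4 was highest in GFPneg replicate 3, at 1.46 CPM. Ptprc, the pan-leukocyte gene, had 6, 32 and 83 counts in GFPpos libraries and 0 in each GFPneg library, and Coro1a had 8, 41 and 182 counts in GFPpos libraries and 0, 5 and 0 counts in GFPneg libraries. The 8 hair follicle markers summed to 21.2, 21.6 and 58.8 CPM in GFPpos libraries and 0, 15.6 and 25.4 CPM in GFPneg libraries, with Krt27, Shh and Hoxc13 at 0 in all 6. Krt79 alone made up 56.6 CPM of the sum in GFPpos replicate 3, where Krt71 was at 0 and Krt75 at 0.156 CPM. The part of these cell types in the Lef1 counts, or in the values of the other members, was not tested.

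Levels of different genes were compared per kb of annotated exon. In GFPpos cells the order was Lgr4 (21.5 ± 3.00 CPM per kb), Tcf7l1 (15.8 ± 1.59), Tcf7l2 (13.7 ± 1.64), Lgr6 (13.2 ± 1.95), Tcf7 (13.1 ± 4.56), Znrf3 (6.02 ± 1.85), Rnf43 (4.81 ± 1.77), Lgr5 (4.26 ± 0.984), Axin2 (1.62 ± 0.491) and Lef1 (0.409 ± 0.596) (SD, n = 3). Tcf7l1, Tcf7l2, Lgr6 and Tcf7 lay within about their spread of each other, as did Znrf3, Rnf43 and Lgr5. Lgr4 was above Tcf7l1 in all 6 libraries, and Axin2, the readout gene, was above Lef1 alone in GFPpos cells. The order depends on the length used, and per kb of the longest transcript Tcf7l2 came first in GFPpos cells (36.4, 31.9 and 28.7 CPM per kb), above Lgr4 (21.7, 28.6 and 24.5 CPM per kb).

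Within a library, the make-up of the TCF/LEF group does not depend on how libraries are scaled to each other. Tcf7l1 made up 33.0%, 33.7% and 44.6% of the summed CPM per kb of the 4 genes in GFPpos replicates 1, 2 and 3, against 58.2%, 46.1% and 50.9% in GFPneg replicates 1, 2 and 3. All GFPpos shares were below all GFPneg shares, and this also held per kb of the longest transcript, where they were 26.6%, 28.7% and 35.8% against 43.2%, 40.7% and 43.7%. GFPneg replicate 1 had Tcf7 at 0 counts. Set against Tcf7l2 alone, Tcf7l1 had 0.413, 0.524 and 0.641 counts per Tcf7l2 count in GFPpos replicates 1, 2 and 3, against 0.622, 0.917 and 0.914 in GFPneg replicates 1, 2 and 3. The ratio was the lower in GFPpos cells in each pool, while the groups overlapped through GFPneg replicate 1, whose 95% counting interval was 0.421 to 0.910.

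**Figure D4:**
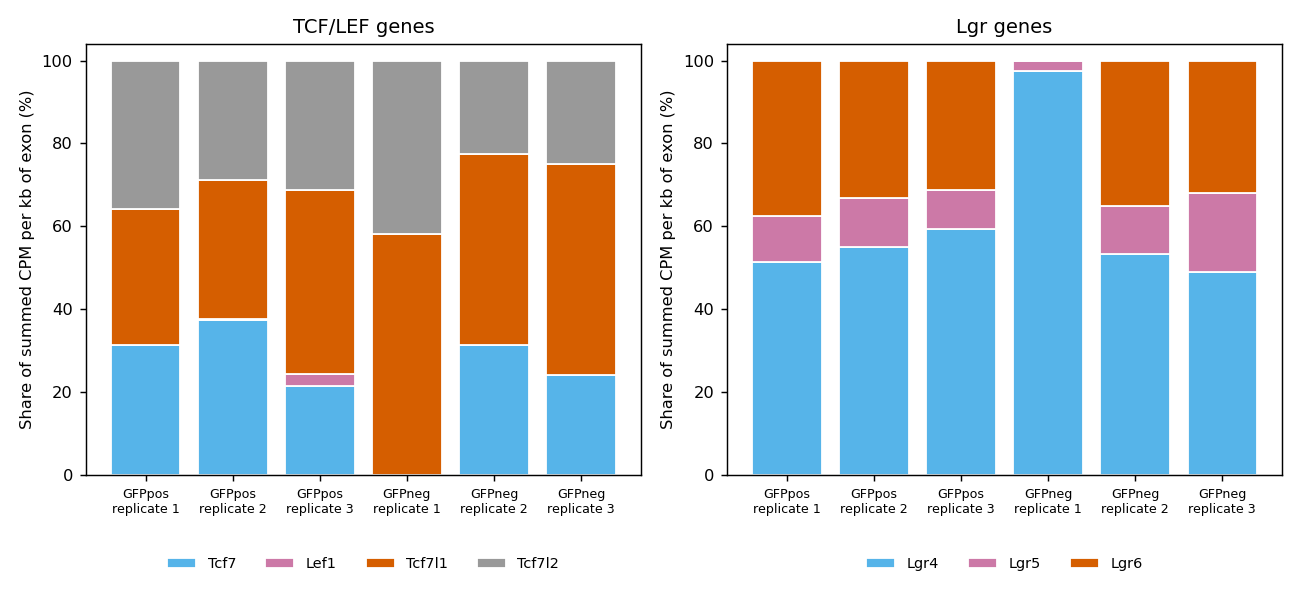
Share of each gene in the summed CPM per kb of exon of the 4 TCF/LEF genes (left) and the 3 Lgr genes (right), in each GFPpos and GFPneg library. The Tcf7l1 share is 33.0% to 44.6% in GFPpos libraries and 46.1% to 58.2% in GFPneg libraries, and GFPneg replicate 1 holds no Tcf7 and no Lgr6.

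In the Lgr group, Lgr4 was the largest part in all 6 libraries. Lgr4 made up 51.5%, 54.9% and 59.3% of the summed CPM per kb in GFPpos libraries, against 97.5%, 53.2% and 49.0% in GFPneg libraries. Lgr6 made up 37.4%, 33.2% and 31.1% in GFPpos libraries, against 0%, 35.1% and 32.0% in GFPneg libraries. Lgr5 was the smallest part in every library but GFPneg replicate 1, at 11.1%, 11.9% and 9.60% in GFPpos libraries and 2.50%, 11.7% and 19.1% in GFPneg libraries. Its share depends on the length used, because the annotated exons of Lgr5 add up to 10.3 kb and its longest transcript to 4.79 kb, and its mean share in GFPpos libraries was 19.0% per kb of the longest transcript against 10.9% per kb of exon.

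Around these genes, the rest of the Wnt pathway held 1 called gene among 81 tested in 8 lists, Ccnd1. The lists were set by role, with earlier results of these data known. Of the 19 Wnt ligand genes, 8 passed the filter, 0 were called, and 7 had negative fold changes (median log2 -1.02, beside 0.15 over all genes tested). Without GFPneg replicate 1, 9 were tested, 0 were called and all 9 were negative (median -1.62, beside 0.04 over all genes). Wnt11, a ligand gene, had means of 7.29 ± 2.31 CPM over GFPpos and 27.5 ± 25.7 CPM over GFPneg libraries (SD, n = 3 each). For Wnt10a the GFPpos and GFPneg means were 1.34 ± 1.64 and 7.26 ± 6.43 CPM, and for Wnt5a 30.6 ± 15.6 and 53.3 ± 9.71 CPM. Their adjusted p-values in edgeR's test were 0.843, 1.00 and 1.00. Wnt11 was called lower in the fit of 2 pairs with the replicate block (edgeR log2 -2.13, adjusted p = 0.0194), which calls 3.92% of genes.

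Of the 17 antagonist genes, 8 were tested, 0 were called and 7 had negative fold changes (median log2 -0.73). Without GFPneg replicate 1 the median was -1.22, with 7 of 9 negative and 1, Wif1, called lower, in a fit that calls 0.602% of genes. Dkk2, a secreted Lrp antagonist gene, had 0 counts in each GFPpos library, against 41, 106 and 37 counts in GFPneg replicates 1, 2 and 3, which are 134, 5.44 and 3.37 CPM. Summed over the libraries it was at least 86.0-fold lower in GFPpos cells against the limit of 3 counts over the group, and at least 67.5-fold lower without GFPneg replicate 1. Its adjusted p was 0.0735 in edgeR's quasi-likelihood test and 1.47e-06 with the replicate block, the 1 antagonist called there, where 0.44% of genes are called. Dkk2 was not called in the blocked fit without replicate 1, which leaves out both fractions of that pool (edgeR adjusted p = 0.0844). In the edgeR fit without the block, where it was not called over 6 libraries, the adjusted p was 0.186 without GFPneg replicate 1. Summed fibroblast markers (11 genes, with Lum at 0 counts in all 6 libraries) were 374 to 468 CPM in GFPpos and 836 to 1727 CPM in GFPneg libraries. Postn alone made up 1152 and 1469 CPM of that sum in GFPneg replicates 2 and 3, and Fbln1 had 70.8, 107 and 35.8 CPM in GFPpos libraries and 88.5, 66.6 and 21.6 CPM in GFPneg libraries. Of the 8 fibroblast markers tested, 6 had negative and 2 positive fold changes with 0 called, and their part in the Dkk2 counts was not tested. Wif1, which encodes a protein that binds Wnt ligands, had a mean of 5.66 ± 2.32 CPM over GFPpos and 41.0 ± 24.6 CPM over GFPneg libraries (SD, n = 3 each), with an adjusted p of 0.368 over 6 libraries and 0.00631 without GFPneg replicate 1 (edgeR). Sfrp1, which encodes a secreted Frizzled-like antagonist, averaged 153 ± 20.9 and 270 ± 174 CPM in GFPpos and GFPneg cells (edgeR adjusted p = 1.00). Sfrp1 was called lower in the fit of 2 pairs with the block (edgeR adjusted p = 0.0122), which calls 3.92% of genes.

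Receptor and transduction genes showed medians near that of all genes in the fit of all 6 libraries. Without GFPneg replicate 1 the median was -0.27 for Frizzled and co-receptor genes (12 of 16 negative), beside 0.04 over all genes. It was -0.09 for the destruction complex (9 of 16 negative) and -0.24 for nuclear partners (10 of 14 negative), with 0 called in each list. The values that follow are from all 6 libraries. Of 16 Frizzled and co-receptor genes, 15 were tested and 0 called, with a median log2 fold change of -0.09. Fzd7, a Frizzled gene with a role in mammary basal cells, had 210, 223 and 193 CPM in the GFPpos libraries, against 151, 335 and 407 CPM in the GFPneg libraries, and GFPneg replicate 1 was again the lowest. The Frizzled genes Fzd2 and Fzd3 had their highest values in GFPneg replicate 1, at 82.0 and 95.1 CPM. Fzd2 had a mean of 7.18 ± 1.81 CPM over GFPpos and 33.7 ± 41.8 CPM over GFPneg libraries, and Fzd3 of 21.7 ± 4.96 and 48.5 ± 40.4 CPM (SD, n = 3 each). All 16 genes of the destruction complex and its regulators were tested with 0 called (median 0.12). Ctnnb1, which encodes beta-catenin itself, had 546, 462 and 367 CPM in the GFPpos libraries, against 252, 375 and 411 CPM in the GFPneg libraries. Gsk3a, a kinase gene of the complex, averaged 47.9 ± 13.5 and 78.2 ± 38.0 CPM in GFPpos and GFPneg cells, and Dvl3, an adaptor gene, 38.8 ± 8.93 and 56.3 ± 15.9 CPM. All 14 genes of nuclear partners were tested with 0 called (median 0.09), among them the corepressor gene Ctbp2 (66.1 ± 13.1 and 108 ± 36.7 CPM in GFPpos and GFPneg cells), Pygo1, a coactivator gene (8.03 ± 0.604 and 16.6 ± 13.0 CPM), and Aes, a Groucho-related gene (89.9 ± 14.4 and 61.5 ± 18.8 CPM).

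Of the 4 R-spondin genes, which encode the ligands of the Lgr receptors, only Rspo1 passed the filter, with 5.53, 9.34 and 7.58 CPM in the GFPpos libraries, against 0, 1.59 and 3.74 CPM in the GFPneg libraries. The groups did not overlap, with GFPneg replicate 1 at 0 counts where 3 counts are 9.84 CPM, and the log2 fold change of 1.74 did not pass (SE 1.16, edgeR adjusted p = 1.00). The secretion genes Porcn and Wls were tested and not called, at 5.59 ± 7.46 and 60.2 ± 12.8 CPM in GFPpos cells and 2.04 ± 3.53 and 64.8 ± 41.4 CPM in GFPneg cells.

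Of 21 other genes known as Wnt targets, 17 were tested, 1 rose and 0 fell (median log2 0.18). Without GFPneg replicate 1 the median was -0.09, and the same 1 gene rose of 18 tested. The 1 that rose was Ccnd1, which encodes cyclin D1 and is also known as a target of Notch. It had 417, 472 and 439 CPM in the GFPpos libraries, against 72.1, 61.2 and 27.1 CPM in the GFPneg libraries. Its log2 fold change was 3.09 (SE 0.46, edgeR adjusted p = 0.0181). Axin2, which was not called, had its lower level in GFPpos cells in the same 3 pools. The cause of either difference was not tested. Cd44, an adhesion receptor gene, averaged 198 ± 46.7 and 108 ± 76.2 CPM in GFPpos and GFPneg cells, and Procr, a mammary stem cell marker gene in mouse, 40.7 ± 32.3 and 23.8 ± 10.8 CPM (SD, n = 3 each), and neither passed (adjusted p = 1.00 in edgeR's test).

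**Figure D5:**
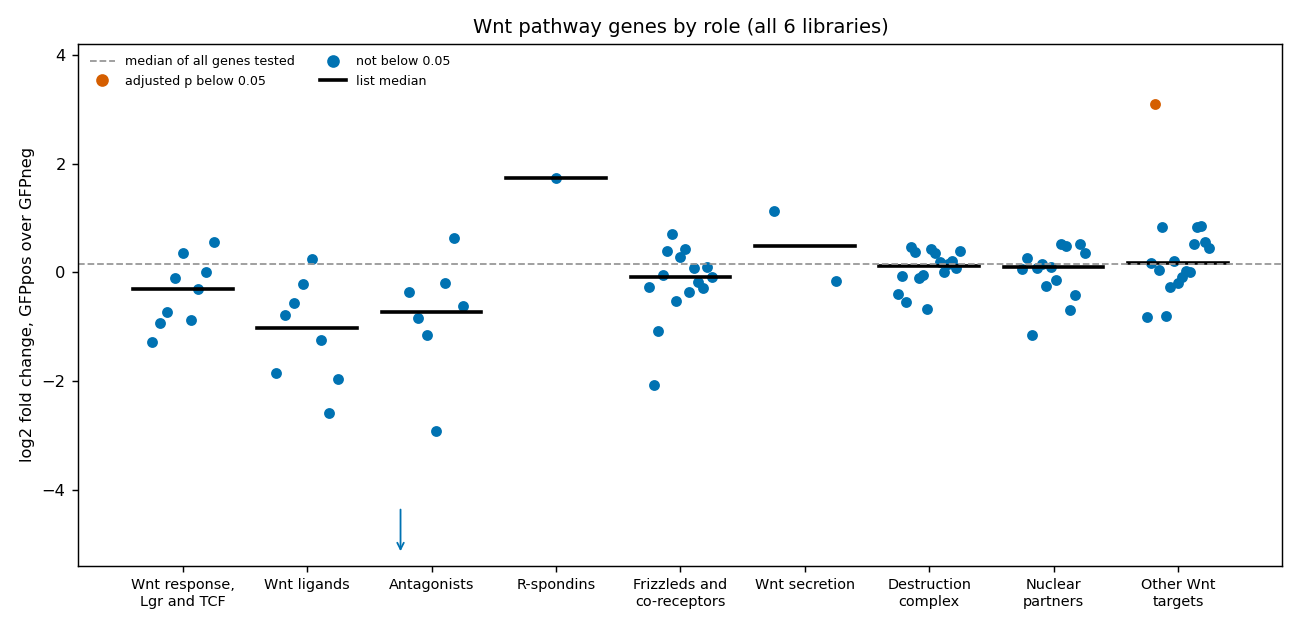
Log2 fold change, GFPpos over GFPneg, of each tested gene of 9 Wnt pathway lists in all 6 libraries. Black bars are list medians, the dashed line is the median of all genes tested (0.15), and the arrow is Dkk2, at 0 in every GFPpos library. Ccnd1, at 3.09, is the 1 point with an adjusted p below 0.05, and the ligand and antagonist medians lie at -1.02 and -0.73.

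The genes with the profile most like that of a member were found by the root mean square difference between log2(CPM + 1) profiles over the 6 libraries, each centred on its mean, among 5900 genes. For Axin2 they were Ccdc28b, Ikbke and Ccdc129, with differences of 0.12 to 0.13. Ikbke had 10.4, 6.22 and 14.4 CPM in the GFPpos libraries, against 26.2, 11.3 and 27.3 CPM in the GFPneg libraries. For Lgr5 they were Tia1, Arhgef25 and Prkca (0.19 to 0.20), which share its low value in GFPneg replicate 1. For Lef1 they were Lcp1, C1qtnf1 and Vash1 (0.43 to 0.49). Lcp1, a leukocyte actin-bundling gene, had 13.3, 23.5 and 75.5 CPM in the GFPpos libraries, against 6.56, 7.49 and 7.20 CPM in the GFPneg libraries. The likeness is a description over 6 libraries that share GFPneg replicate 1.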

How the data were processed

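The deposited values are raw read counts, whole numbers for 51826 symbols in each of 6 libraries, beside 5 summary lines. The submitters' processing notes name cutadapt, FastQC, TopHat2, HTSeq and mm10. Not given in the sources used here are the strand setting, the annotation and all versions. Overlapping and antisense genes are therefore uncertain. Lef1 shares 1208 exon bases with the antisense gene Gm43352 (8 counts in GFPpos replicate 2, 0 elsewhere), and Axin2 and Tcf7l1 share 209 and 179 with antisense genes at 0 counts. Reads of no feature were 66.4% in GFPneg replicate 1 and 28.8% to 40.5% in the others, and summary rows were left out. Positions and exon lengths came from GENCODE M21 on the same assembly.

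All 6 libraries entered 1 fit with group as its only term, made with edgeR 4.0.16 (R 4.3.3) after filterByExpr and TMM scaling, with the quasi-likelihood test. Adjusted p-values are Benjamini-Hochberg values over all genes tested, with a threshold of 0.05. The SE is the unshrunk log2 fold change divided by the square root of F, and 95% intervals use the fit's degrees of freedom. CPM were divided by the effective library size. Counting intervals are exact and cover counting error only. The scripts were tested on simulated data. Libraries are pools of mice, so that spread is spread between pools.

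Per the labels' design text, GFPpos and GFPneg cells with 1 replicate number were sorted from 1 pool, which pairs them. Deviations of the 2 fractions from their group means correlated at -0.0155, 0.0953 and 0.0107 in replicates 1, 2 and 3. Fits with the replicate block, DESeq2 1.42.0, limma-voom (limma 3.58.1), other scalings and filters and left-out libraries or pairs were alternatives. The 2 fits that combine no low count filter with the block or with a left-out library were chosen after seeing the data. The members and lists were chosen with earlier results of these data known. Named genes are the members, called genes and up to 3 genes of smallest p per pathway list, and the 3 most alike profiles for Axin2, Lgr5 and Lef1. Marker genes beside Lef1 and Dkk2 were named after their values were seen.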

Additional observations from a re-analysis of the deposited data

How the results depend on the processing

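Over 22 fits, Axin2, Lgr4 and Tcf7l1 had negative log2 fold changes in all 22. Lef1 had positive ones in each of the 9 that could fit it. All 9 hold GFPpos replicate 3, with 185 Lef1 counts, so their sign rests on that 1 library. In 21 of the 22 fits 0 members were called. The exception was Lgr5 (log2 -1.12, adjusted p = 0.0477, 1 member called) without GFPneg replicate 1 and without a filter on low counts. The replicate block called 0 members. Genes called over the whole table were 61 with the replicate block, 92 with DESeq2, 146 with DESeq2 and the block, 78 with limma-voom, 3 with upper-quartile factors, 301 without a low count filter, 5 with a stricter one, 602 with the block without replicate 1, 88 with the block and no filter, 595 with no filter and without GFPneg replicate 1, and 3 to 92 when a library or pair was left out, against 9. The cause was not tested. Library size as the only scaling moved the median of all genes by 0.16 and upper-quartile factors by -0.12.

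Of the members, 5 changed sign under some alternatives. Lgr6 was 0.47 with the block, 0.69 with DESeq2 and the block, 0.51 with the block and no filter, and -0.63 to 0.40 with a library or pair left out. Tcf7l2 was 0.14 with library size only, 0.10 with limma-voom, 0.10 with the block without replicate 1, 0.18 with no filter and without GFPneg replicate 1, and -0.58 to 0.18 over the left-out fits. Tcf7 was -0.20 with the block without replicate 1, -0.0902 with no filter and without GFPneg replicate 1, and -0.11 to 0.89 over the left-out fits. Znrf3 was -0.0342 with the block without replicate 1 and -0.0768 to 1.28 over the left-out fits, and Lgr5 was -1.13 to 0.0939 over them, the positive value without replicate 3. Rnf43, at 0.00 in the main fit, has no direction there. Over the 22 fits Rnf43 was -0.56 to 0.85, negative in 10 and positive in 12. The median over members was 0.13 with the block and no filter and -0.58 to 0.10 over the left-out fits. Members whose groups did not overlap numbered 3 to 4 without 1 pair, against 2, where 30.7% to 39.1% of all genes did not overlap. Pathway genes called beyond the members were 2 with the block, 2 without GFPneg replicate 1 and 4 with the block without replicate 1, against 1. These fits call 0.44%, 0.602% and 3.92% of all genes tested, against 0.0649%. The p-values of the blocked fits rest almost wholly on the spread shared across genes. Shares per kb of the longest transcript differed from those per kb of exon by more than the SD for Tcf7, Tcf7l1, Tcf7l2, Lgr5 and Lgr6. GFPneg replicate 1 sets the depth limit, since 1 count there is 3.28 CPM.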
